A study of Mus musculus with 8 samples.

Results

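The enzymes that conjugate bile acids, the carriers that move bile acids in and out of hepatocytes and the receptor pair that restrains their synthesis were measured in the liver and hypothalamus of male mice lacking fibromodulin. The set was fixed by name as Slc27a5, Slc27a2, Baat, Slc10a1, Slco1b2, Abcb11, Abcb4, Abcc2, Fgfr4 and Klb. All probes that the platform annotation assigns to these 10 genes were taken, which gave 12 of the 25697 probes on the array, with 2 probes each for Abcc2 and Slco1b2 and 1 for each of the others. The samples were total RNA from 4 liver and 4 hypothalamus dissections of Fmod knockout males of the C57BL/6 background at 13 weeks of age, each hybridised to its own single-colour bead array. Both tissues thus came from knockout animals. Wild-type animals were not analysed here, so the values compare 2 tissues of the knockout and not the knockout with a control. The labels do not say how the allele was made, nor whether same-numbered liver and hypothalamus samples came from the same mouse. The main fit therefore treated the samples as unpaired, and its p-values set the tissue difference against the spread between these samples.

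Bile acids are made from cholesterol in hepatocytes, activated to CoA thioesters, joined to taurine or glycine, and pumped across the canalicular membrane into bile. Those that return from the intestine in portal blood are taken up again at the sinusoidal membrane. The intestinal hormone fibroblast growth factor 15 acts on hepatocytes through the receptor Fgfr4 and its co-receptor beta-klotho (Klb) and lowers expression of the first enzyme of synthesis, Cyp7a1.

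Array quality and tissue identity were checked first. Arrays of a tissue correlated at 0.976 to 0.984 in liver and at 0.987 to 0.993 in hypothalamus over the tested probes, and pairs across tissues at no more than 0.455. A probe is called detected on an array where its deposited detection p-value was under 0.05. Liver arrays detected 10307 to 10828 probes and hypothalamus arrays 13285 to 13753. Of the 9 hepatocyte markers with a probe, 7 were tested and all 7 were higher in liver, while all 7 tested neuron markers of 10 were higher in hypothalamus. Among all 9456 genes tested 37.3% were higher in liver and 43.1% in hypothalamus. Only 2 of the hepatocyte markers were detected on all hypothalamus arrays, and no neuron marker on all liver arrays. Most could thus pass the filter through 1 tissue, and the counts say little by themselves. The untested neuron probes, of Snap25, Nefl and Tubb3, lay near background in hypothalamus too. Of other brain cell markers, 6 of 7 tested for astrocytes, 5 of 7 for brain endothelium and 3 of 5 for choroid plexus were higher in hypothalamus. Sostdc1, one of the choroid plexus genes, lost its call under cyclic loess (−0.86, limma adjusted p = 0.103), and the endothelial gene Pecam1, not called here (0.36), was called higher in hypothalamus under median scaling (−0.44) and in the authors' normalized table (−0.28). Fibromodulin itself was read by 2 probes. One was not detected on any array, and the other on hypothalamus replicate 2 alone, with a signal of 174 and a detection p of 0.00251. The sources used here do not place either probe inside or outside the deletion, so they do not check the genotype.

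Of the 12 probes 9 were tested, 1 for each gene except Fgfr4. A probe was tested where it was detected on at least 4 of the 8 arrays, and the limma adjusted p-values (Benjamini-Hochberg over 13498 probes) are two-sided with a threshold of 0.05. All 9 were higher in liver, and all 9 were also higher by more than 2-fold (limma's treat). Among all tested probes 37.8% were higher in liver and 19.4% were so by more than 2-fold. That count says little by itself, since 7 of the 9 passed the filter through the liver arrays alone and had to differ to pass, as did all 555 tested probes detected on every liver array and no hypothalamus array. Of those 555 probes, 39 had a larger difference than Slc27a5, 159 than Baat, 178 than the tested Abcc2 probe and 212 than Abcb11. The number was 224 for the tested Slco1b2 probe, 277 for Klb and 531 for Slc10a1. Only Slc27a2 and Abcb4 were detected on all 4 arrays of both tissues. Over all 12 probes with no filter, 11 were higher in liver, against 21.8% of the 25697 probes. These 11 still include the 7 that passed through the liver arrays alone and the Fgfr4 probe near background. This count too says little by itself. The median log2 difference (liver minus hypothalamus) over the 9 tested genes was 6.02, or 5.53 with genes undetected in hypothalamus at their bound. Over all 9456 genes tested the median was −0.11. The member median too rests mostly on genes that had to differ to pass. The 555 probes detected on every liver array and no hypothalamus array had a median of 4.46. The microarrays read whole dissections, so fewer cells of a type and less RNA per cell cannot be told apart.

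**Figure D1:**
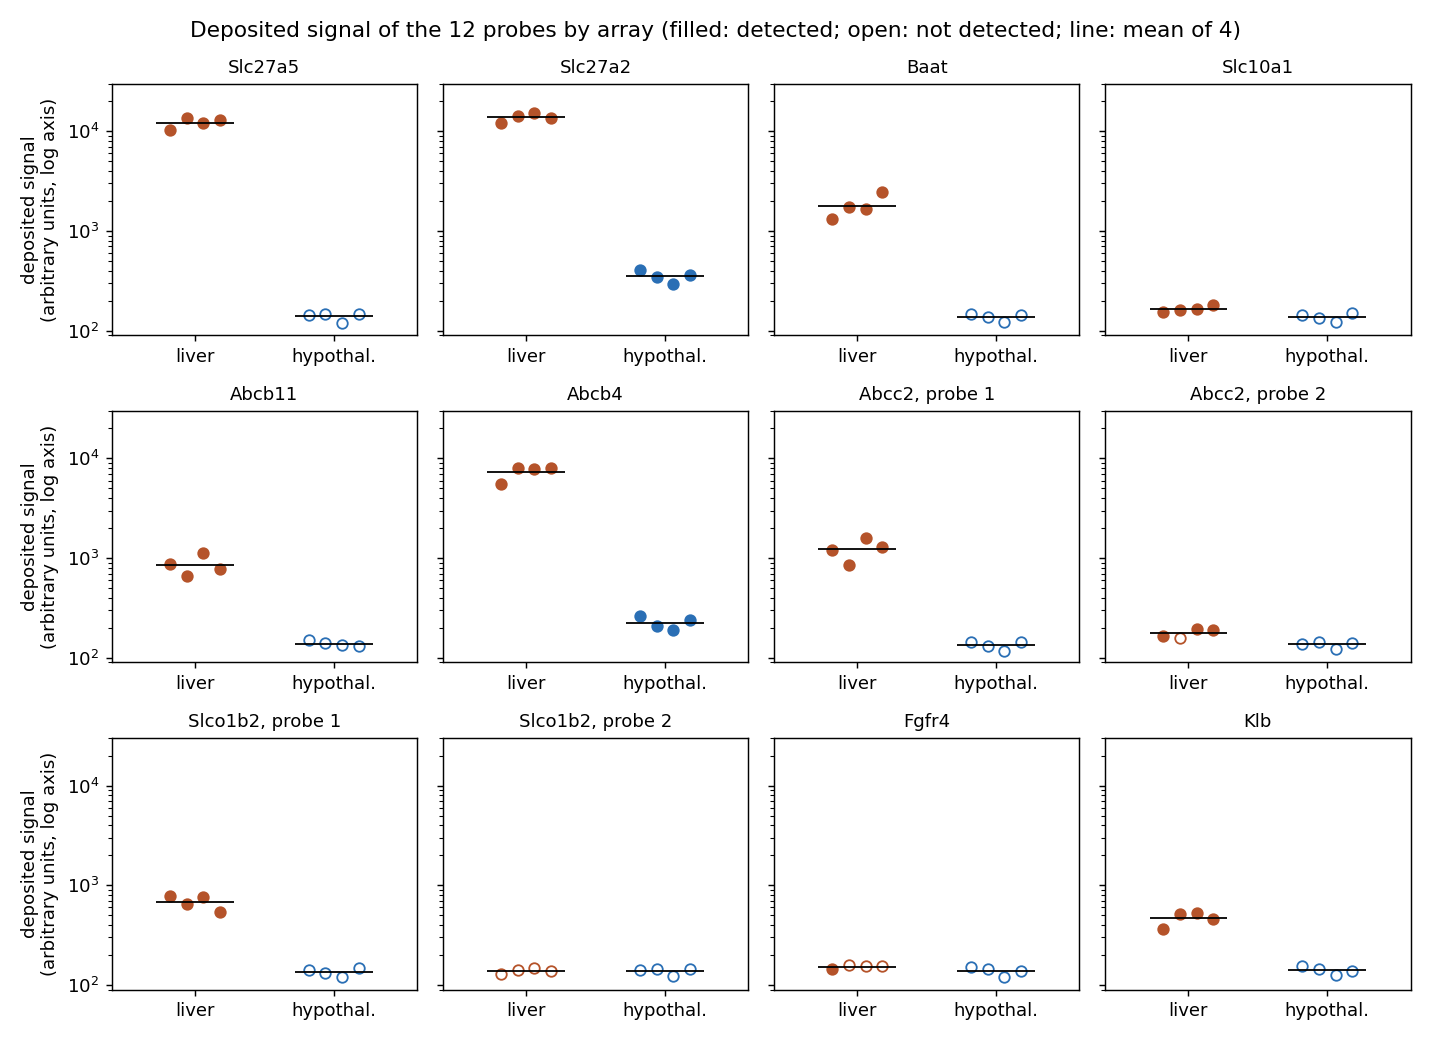
Deposited signal (log axis, arbitrary units) of the 12 probes on each of the 4 liver and 4 hypothalamus arrays, with filled points where the probe was detected, open points where it was not, and a line at the mean of 4 arrays. Slc27a2 and Abcb4 are filled in both tissues, 7 other probes are filled on all liver arrays and open on all hypothalamus arrays, and Slc10a1, Fgfr4 and probe 2 of Abcc2 and of Slco1b2 lie close to the hypothalamus level in liver too.

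The start-site regions of the members were compared because 2 of the genes were also detected in hypothalamus and the others were not. RefSeq windows of the GRCm38.p6 assembly, from 250 bases before to 50 bases after a start site, were found for 8 of the 10 genes, with none used for Slc27a5 and Baat. The windows of 4 genes are shown 5′ to 3′ on the gene's strand, the first 2 from the genes detected in both tissues and the others from genes detected in liver alone. Capitals mark CG dinucleotides, except in Slco1b2, which has none and where they mark matches to TATAAA and GTTAAT. The Slc27a2 window lies at chr2:126552774-126553073 (plus strand), that of Abcb4 at chr5:8893471-8893770 (plus), that of Abcb11 at chr2:69342567-69342866 (minus) and that of Slco1b2 at chr6:141629268-141629567 (plus).
Slc27a2: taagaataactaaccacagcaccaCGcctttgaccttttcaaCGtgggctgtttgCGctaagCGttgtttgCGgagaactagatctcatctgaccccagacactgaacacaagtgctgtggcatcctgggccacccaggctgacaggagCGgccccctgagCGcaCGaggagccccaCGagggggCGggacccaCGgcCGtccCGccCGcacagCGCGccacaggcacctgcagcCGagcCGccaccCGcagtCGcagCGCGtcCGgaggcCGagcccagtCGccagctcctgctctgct
Abcb4: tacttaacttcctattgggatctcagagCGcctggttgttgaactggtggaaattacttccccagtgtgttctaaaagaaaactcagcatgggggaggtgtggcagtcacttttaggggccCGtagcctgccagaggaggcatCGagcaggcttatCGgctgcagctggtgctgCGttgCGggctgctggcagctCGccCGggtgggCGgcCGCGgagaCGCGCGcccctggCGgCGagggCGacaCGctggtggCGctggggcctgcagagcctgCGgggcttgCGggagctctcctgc
Abcb11: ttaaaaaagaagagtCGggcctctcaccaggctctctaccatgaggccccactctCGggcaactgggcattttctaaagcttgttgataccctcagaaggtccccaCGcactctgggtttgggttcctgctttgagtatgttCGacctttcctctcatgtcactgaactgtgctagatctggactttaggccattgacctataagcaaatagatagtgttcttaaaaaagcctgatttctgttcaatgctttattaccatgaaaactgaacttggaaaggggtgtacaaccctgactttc
Slco1b2: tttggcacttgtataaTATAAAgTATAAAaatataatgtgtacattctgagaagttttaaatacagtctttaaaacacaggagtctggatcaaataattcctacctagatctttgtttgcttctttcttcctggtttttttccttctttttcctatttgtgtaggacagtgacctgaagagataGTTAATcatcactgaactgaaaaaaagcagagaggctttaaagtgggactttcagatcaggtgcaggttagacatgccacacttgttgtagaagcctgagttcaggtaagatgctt

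Slc27a2 held 25 CG dinucleotides in its window and Abcb4 held 21, against 4 in Abcb11 and 0 in Slco1b2. Abcc2 had 1, Klb had 10, and the 2 start sites of Slc10a1 had 2 and 6. Fgfr4 had 20, but its probe was at background in both tissues (detected on 1 liver array), so its detection cannot be set beside that count. Among the windows of the other genes, the 2 genes detected in both tissues had 21 and 25 and those detected in liver alone had 0 to 10. The width of this gap rests on leaving out Fgfr4. Slc10a1, also close to background in liver, was kept because it was detected on all 4 liver arrays. The CG count was then read over all genes tested, with the window holding most CG dinucleotides where a gene had several. The median was 5 for the 285 genes detected on all liver arrays and no hypothalamus array that had a window, and 23 for 4843 genes detected on all 8 arrays. It was 19 for 1213 genes detected on all hypothalamus arrays and no liver array, and also 19 for the 1345 remaining genes. At least 20 were held by 11.2% of the liver-only genes, 63.1% of the genes detected on all 8 arrays and 47.8% of the hypothalamus-only genes, so the hypothalamus-only genes lay nearer to the genes detected on all 8 arrays than to the liver-only genes. The comparison was chosen after the values were seen and is given without a test. A search on both strands for motifs of liver regulators, and for the general sequence TATAAA, found little in the 9 member windows. GTTAAT, the core of the Hnf1 type of site, was found in Slco1b2 alone, from 66 bases before its start site, and occurs in 7.1% of 32851 mouse windows of the same length. TATAAA was found in Slco1b2 and in one window of Slc10a1 (13.6% of all windows). CAAGGTCA (1.56% of all windows), CAAAGTCCA of the Hnf4 type (0.475%), TTGCGCAA of the C/EBP type (0.183%) and the inverted repeat of AGGTCA spaced by 1 base, to which the bile acid receptor binds (0.00913%), had no match in these windows. The first of them contains the unit AGGTCA of the inverted repeat.

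The conjugation enzymes were far higher in liver, and Slc27a5 had the largest difference of the 12 probes. Slc27a5, the bile acyl-CoA synthetase, which activates bile acids that return to the liver, had deposited signals of 10232, 13445, 12099 and 12914 on the liver arrays, against 145.1, 147.1, 118.3 and 146.8 in hypothalamus. It was detected on all liver arrays and none of hypothalamus, and the groups lay far apart. On the normalized log2 scale it averaged 13.48 ± 0.08 in liver and 4.48 ± 0.08 in hypothalamus (SD, n = 4 each), a difference of 8.996 (SE 0.096, limma adjusted p = 1.22e-12). Because the hypothalamus value only bounds the level there, the fold is given against the lowest signal among detected probes, and was at least 382-fold. Bounds of this kind hold within the main normalization and leave out the spread between arrays.

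Slc27a2, a synthetase of very long chain fatty acids that also activates bile acid precursors, was measured in both tissues. Its deposited signals were 12068, 14243, 15389 and 13699 in liver, against 409.1, 346.1, 292.9 and 365.4 in hypothalamus, where the detection p was 0 on each array. The normalized log2 intensity was 13.65 ± 0.07 in liver and 7.34 ± 0.09 in hypothalamus (SD, n = 4 each), which is 79.6-fold higher in liver (log2 difference 6.31, SE 0.10, limma adjusted p = 5.65e-12). Among the 7992 probes detected on all 8 arrays, 36 had a larger difference toward liver. Baat, which transfers the activated bile acid to taurine or glycine, had 1316, 1726, 1679 and 2473 in liver, against 147.8, 137.3, 121.5 and 142.7 in hypothalamus. It was undetected in hypothalamus and at least 65.7-fold higher in liver (log2 difference 6.49, SE 0.13, limma adjusted p = 3.79e-11). Baat was highest in liver replicate 4, and the other 3 liver arrays lay closer together.

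Export across the canalicular membrane is carried by Abcb11, the bile salt export pump, Abcb4, which moves phosphatidylcholine into bile, and Abcc2, which exports glucuronide and glutathione conjugates. The Abcb4 signals were 5511, 7988, 7853 and 8027 in liver, against 260.4, 207.5, 188.5 and 242.7 in hypothalamus. Abcb4 was thus detected on all arrays of both tissues and was 101.8-fold higher in liver (normalized log2 intensity 12.80 ± 0.13 in liver and 6.13 ± 0.22 in hypothalamus, SD, n = 4 each; difference 6.67, SE 0.13, limma adjusted p = 3.39e-11). Of the probes detected on all 8 arrays, 25 had a larger difference. The Abcb11 signals were 877, 669, 1115 and 772 in liver, against 150.4, 139.6, 135.0 and 131.7 in hypothalamus. Abcb11 was undetected in hypothalamus and at least 32.4-fold higher in liver (log2 difference 5.40, SE 0.17, limma adjusted p = 9.75e-10).

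The 2 probes of Abcc2 differed in brightness and gave the same direction. The brighter one (ILMN_2606719) had 1198, 847, 1604 and 1295 in liver, against 145.1, 131.4, 116.5 and 145.2 in hypothalamus, and was at least 46.1-fold higher in liver (log2 difference 6.02, SE 0.17, limma adjusted p = 3.73e-10). The dimmer one (ILMN_2655359) had 167.4, 157.8, 196.2 and 190.9 in liver, against 138.2, 145.7, 123.9 and 140.1 in hypothalamus. It was detected on 3 of 4 liver arrays, 1 short of the filter, and liver replicate 2 was the array without detection. In the limma fit to all probes its difference was 1.91 (SE 0.24, adjusted p = 8.91e-05). That difference was 0.60 without background correction and 0.39 in the authors' own normalized table. The 2 probes therefore disagree in size by several log2 units for one gene.

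Uptake carriers were read by dimmer probes. The brighter Slco1b2 probe (ILMN_1251837), for the sinusoidal carrier of bile acids and many drugs, had signals of 781, 644, 757 and 546 in liver, against 140.7, 130.8, 121.9 and 149.5 in hypothalamus, and was at least 25.8-fold higher in liver (log2 difference 5.16, SE 0.17, limma adjusted p = 1.01e-09). The other Slco1b2 probe (ILMN_2730145) was not detected on any array, with 129.3, 140.6, 149.8 and 139.3 in liver, against 140.4, 145.5, 122.1 and 144.8 in hypothalamus. Its difference of 0.07 (95% interval −0.12 to 0.26, limma fit to all probes, adjusted p = 0.546) did not pass the threshold. Its sign turned under cyclic loess (−0.02) and in the authors' normalized table (−0.14). The sources used here do not place the probes on their transcripts.

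The only probe of Slc10a1, the sodium-dependent carrier that takes up most conjugated bile acids, was close to the background in liver. Whether this reflects the probe or the level of the transcript was not tested. Its signals were 153.6, 161.0, 166.2 and 180.5 in liver, with detection p-values of 0.0138, 0.0439, 0.0388 and 0.00877, against 144.8, 133.4, 123.4 and 151.4 in hypothalamus. Every liver array lay above every hypothalamus array, but the gap between liver replicate 1 and hypothalamus replicate 4 was small. The normalized log2 intensity was 5.96 ± 0.35 in liver and 4.47 ± 0.10 in hypothalamus (SD, n = 4 each), and the gene was at least 2.08-fold higher in liver (log2 difference 1.49, SE 0.17, limma adjusted p = 1.65e-05; beyond 2-fold, adjusted p = 0.0209). The difference was 0.44 without background correction and 0.22 in the authors' normalized table, and the 2-fold call was lost in both, under median scaling and cyclic loess, and without hypothalamus replicate 2 (adjusted p = 0.0562).

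The receptor pair was read unequally, since the only Fgfr4 probe lay near background in both tissues. Klb had 367, 520.0, 534 and 463 in liver, against 156.0, 145.6, 124.9 and 137.2 in hypothalamus, and no liver value fell within the hypothalamus range. It was undetected in hypothalamus and at least 16.9-fold higher in liver (log2 difference 4.46, SE 0.13, limma adjusted p = 3.65e-10). The Fgfr4 probe had 146.0, 158.2, 153.9 and 155.9 in liver, against 151.2, 146.2, 121.1 and 138.5 in hypothalamus. It was detected on liver replicate 1 alone, with a deposited detection p-value of 0.0426, and the deposited signals of the tissues overlapped. After normalization its log2 intensity was 5.25 ± 0.41 in liver and 4.48 ± 0.11 in hypothalamus (SD, n = 4 each), a difference of 0.76 (SE 0.19, limma fit to all probes, adjusted p = 0.00765). That difference was 0.04 in the authors' normalized table (adjusted p = 0.526), and the call held under the other 5 settings that kept every array.

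**Figure D2:**
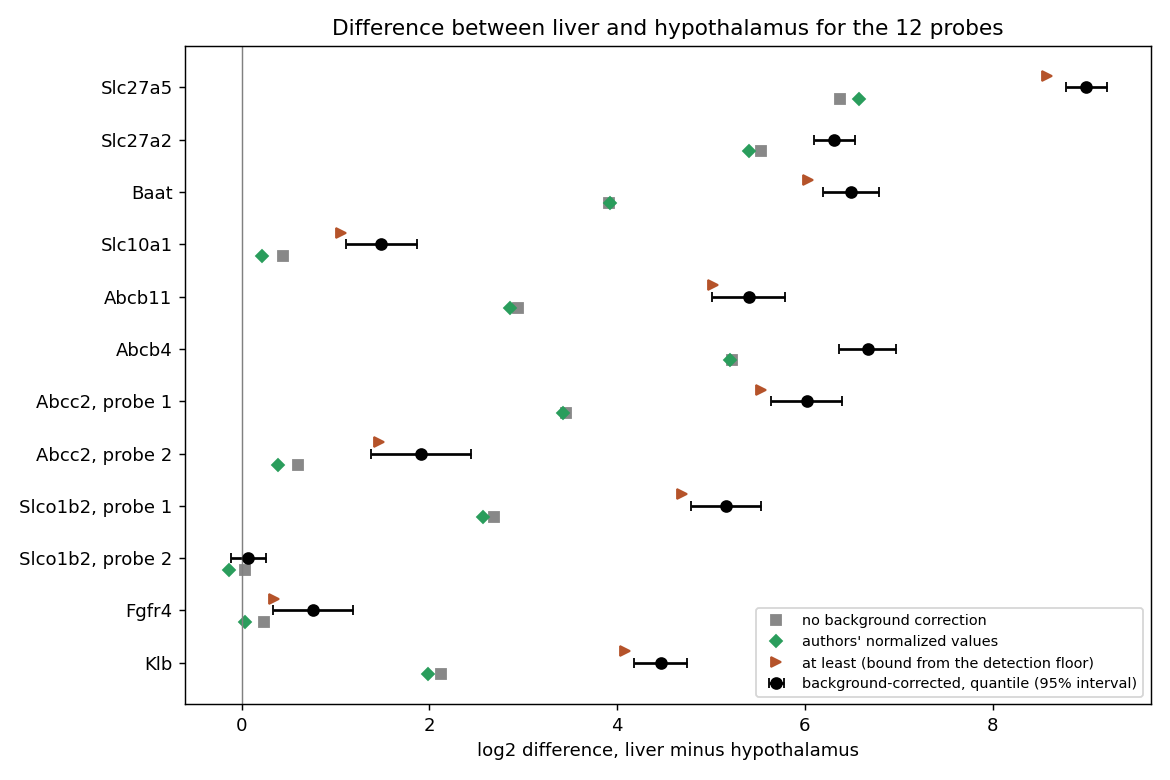
Log2 difference (liver minus hypothalamus) of the 12 probes with 95% intervals after background correction and quantile normalization, with the bound from the detection floor and the values without background correction and in the authors' normalized table. Without background correction the differences of the 9 tested genes lie at 0.44 to 6.38 instead of 1.49 to 8.996, and the order of Slc27a5 above the others and Slc10a1 below them is kept.

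The size of these differences depends on the background step. Without it the median of the 9 tested genes was 3.46, and in the authors' normalized table it was 3.42, while all 9 stayed higher in liver. The share of called probes that were higher in liver also moved, with 47.5% in the main normalization, 34.4% under median scaling and 28.6% in the authors' normalized table, and over all tested probes the median difference was −0.49 under median scaling and −0.39 in the authors' table, against −0.07 in the main normalization.

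Detection of Slc27a2 and Abcb4 in hypothalamus was set beside hepatocyte markers there. Of the 9 hepatocyte markers with a probe, Apoa1 and Ttr were detected on all 4 hypothalamus arrays, Serpina1a on 1, and the other 6 on none. Of these 6, Cps1, Hpx and Ahsg had signals of 13442 to 38416 in liver. The albumin probe (Alb) had only 283 to 421 there, and Fgb and Tat were each detected on 1 liver array. Absence of these dim probes from hypothalamus says little about hepatocyte RNA there. The deposited signals of the 9 markers summed to 132786 to 160065 in liver and to 1488 to 16791 in hypothalamus. The wide range in hypothalamus came from Ttr, a thyroid hormone carrier also made in choroid plexus, with 188.9, 460, 15699 and 456 on the 4 arrays; without Ttr the sums were 110657 to 131145 in liver and 1092 to 1341 in hypothalamus. Apoa1 had 290.2, 288.6, 220.2 and 310.3 in hypothalamus. After normalization Slc27a2 was 7.47, 7.27, 7.32 and 7.30 and Abcb4 was 6.37, 5.85, 6.07 and 6.24 on hypothalamus replicates 1 to 4, so both were highest in replicate 1 and lowest in replicate 2. The part of hepatocyte or choroid plexus RNA in the 2 hypothalamus signals was not tested.

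Among the 4 liver arrays the members varied in different ways. The SD of the normalized log2 intensity was 0.07 for Slc27a2 and 0.08 for Slc27a5, lower than that of most probes detected on all 4 liver arrays (6.09% and 10.3% of 9055 probes had a lower SD, and 22.8% and 34.1% of those within 0.5 log2 of the same liver level). It was 0.32 for Abcb11, 0.34 for Slco1b2 and 0.36 for the brighter Abcc2 probe, and 92.1%, 92.9% and 94.6% of the probes at the same level had a lower SD. Abcb11 and both Abcc2 probes were lowest in liver replicate 2, with deviations of −0.34, −0.50 and −0.82 from the mean of the 4 arrays. Slco1b2 was highest in replicate 1 (0.44 above its mean) and lowest in replicate 4 (−0.40). Baat (0.36) and Slc10a1 (0.43) were highest in replicate 4. Abcb4 and Klb were lowest in replicate 1 (−0.18 and −0.22) and highest in replicate 2 (0.14 and 0.19). With 4 arrays no correlation between members is given.

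**Figure D3:**
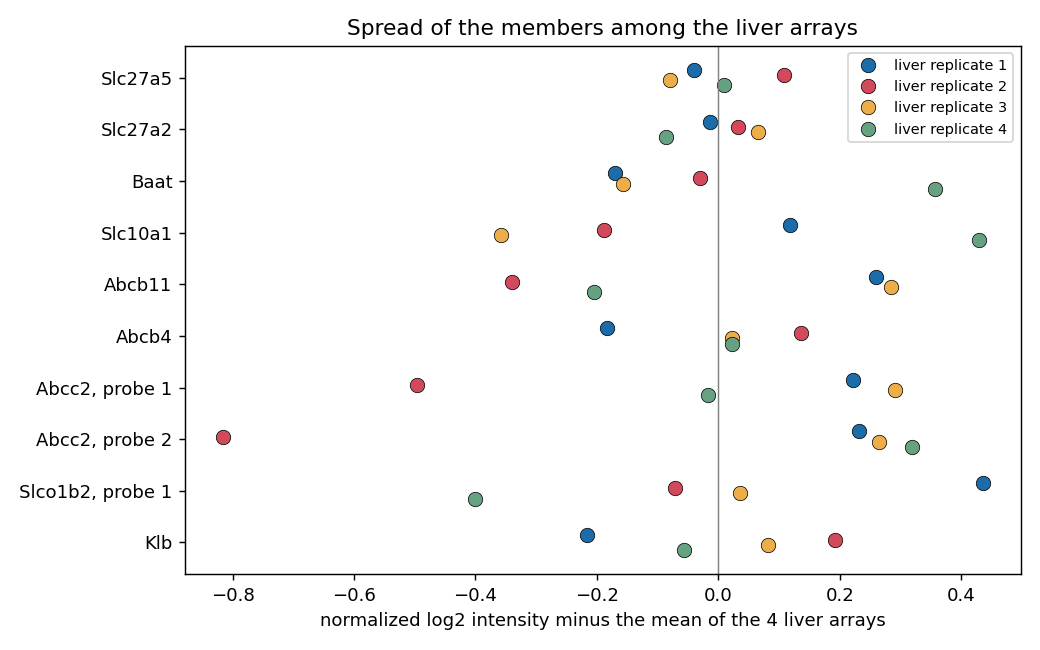
Normalized log2 intensity of each probe on the 4 liver arrays, minus the mean of those arrays, for the 10 probes detected on at least 3 liver arrays, with 1 colour for each replicate. Slc27a5 and Slc27a2 lie within 0.11 of their means, and liver replicate 2 is the lowest array for Abcb11 and both Abcc2 probes.

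Genes whose profile over the 8 arrays was most like that of a member, by the root mean square difference of profiles centred on their own means among 9311 other genes with an established name, were the following. Slc27a5 was nearest to Itih1 (0.0945) and Hpd (0.0947), Slc27a2 to Inhbc (0.0966) and Hpn (0.0975), and Baat to Ttpa (0.109) and Masp1 (0.123). Abcb4 was nearest to Abcg8 (0.144), one of the pair of sterol exporters of the same membrane, and Reep6 (0.169). Abcb11 was nearest to catalase (Cat, 0.164) and Acnat2 (0.172), a relative of Baat, and Abcc2 to the glucose transporter Slc2a2 (0.126) and Cideb (0.186). Slco1b2 was nearest to G0s2 (0.147) and Sucnr1 (0.159), Slc10a1 to Nectin1 (0.117) and Fam174c (0.123), and Klb to Sardh (0.0923) and Fpgs (0.152). These profiles share the arrays and the normalization, and the measure is a description without a test. Fgfr4 had no tested probe and no profile was compared.

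Neighbours of the members on the chromosome divided between the tissues. The nearest protein-coding gene with a tested probe was taken on each side of the 10 members, in the gene order of the RefSeq table. Of these 20 neighbours 9 were higher in liver (45%), 10 higher in hypothalamus and 1 was not called, while 37.3% of all 9456 genes tested were higher in liver and 43.1% higher in hypothalamus. Slc27a5 lay between the zinc finger genes Zfp446 and Zbtb45, which were both higher in hypothalamus (log2 differences −1.51 and −1.88). Slc27a2 lay next to Hdc, the enzyme that makes histamine, which was also higher in hypothalamus (−3.75). Slco1b2 lay in a cluster of carrier genes of which Slco1a4 was higher in liver, by 8.17-fold, and Slco1c1, the thyroid hormone carrier of brain endothelium, was higher in hypothalamus, by at least 10.2-fold. Beside Abcb4 lie Abcb1b and Abcb1a, exporters of drugs. No probe of these passed the filter, with Abcb1a detected on none of the arrays and Abcb1b on 2 hypothalamus arrays and no liver array. Beside Baat lie its relatives Acnat1 and Acnat2, and Acnat2 was at least 27.7-fold higher in liver. These genes were named after their values were seen.

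Lists of related genes were read in the same fit, with 1 probe for each gene, and their counts stand against the 37.3% of all genes tested that were higher in liver. Genes of these lists that passed the filter through the liver arrays alone had to differ, so the number detected on all 4 hypothalamus arrays is given with each count. That number also takes in genes not called higher in liver. Of 15 enzymes of bile acid synthesis 12 were tested, with 11 higher in liver and 1 in hypothalamus (median log2 difference 4.15). On all hypothalamus arrays 7 were detected, with the 1 higher in hypothalamus among them. Cyp8b1, the sterol hydroxylase that directs synthesis to cholic acid, was at least 769-fold higher in liver, Cyp7a1 at least 226-fold and Cyp2c70, which makes muricholic acids in mice, at least 147-fold. Cyp46a1, the cholesterol hydroxylase of neurons, was the exception and was higher in hypothalamus by at least 2.24-fold. The 13 receptors and transcription regulators included 9 tested genes, all higher in liver (median 5.18, 4.97 at the bounds), of which 2 were detected on all hypothalamus arrays. The bile acid receptor Nr1h4 was at least 189-fold higher, the hepatocyte factor Hnf4a, detected on 3 of 4 hypothalamus arrays, at least 114-fold and the xenobiotic receptor Nr1i3 at least 80.5-fold. The probes of Nr0b2, the repressor that acts downstream of Nr1h4, and of the bile acid receptor Gpbar1 were not detected on any array.

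Acyl-CoA enzymes related to the conjugation genes did not move as one. Of 14 listed, 11 were tested, with 9 higher in liver and 2 in hypothalamus (median 2.49). On all hypothalamus arrays 7 were detected, with the 2 higher in hypothalamus among them. Glyat, which joins acyl groups to glycine, was 292-fold higher in liver, and the thioesterases Acot12 and Acot4 were at least 49.4-fold and at least 43.8-fold higher, with Acot4 detected on 1 of 4 hypothalamus arrays. Acot2, also among the 9 (log2 difference 1.29), lost its call in the authors' normalized table (0.13). Within the Slc27 family, whose other members were named after their values were seen, Slc27a3 was at least 2.31-fold and Slc27a1 2.55-fold higher in hypothalamus. Slc27a4 was 1.93-fold higher in liver (log2 difference 0.95), a call lost under median scaling (0.20) and in the authors' normalized table (−0.02). Slc27a6 was not detected on any array. Under the same settings the differences were 9.46 and 6.57 for Slc27a5 and 6.34 and 5.40 for Slc27a2.

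Of 10 other uptake carriers 7 were tested and all 7 were higher in liver (median 3.03), with 5 detected on all hypothalamus arrays. Among them were Slc2a2 (at least 49.3-fold), the prostaglandin carrier Slco2a1 (at least 51.2-fold, detected on 1 of 4 hypothalamus arrays) and Slco2b1 (9.78-fold). Slco1a1 was not detected on any array. Of 9 other canalicular exporters and flippases 5 were tested, with 4 higher in liver and 1 in hypothalamus (median 4.51). On all hypothalamus arrays 2 were detected, with the 1 higher in hypothalamus among them. The sterol exporters Abcg5, detected on 1 of 4 hypothalamus arrays, and Abcg8 were at least 117-fold and at least 74.0-fold higher in liver and Slc47a1 was 22.8-fold higher, while Tmem30a, a subunit of lipid flippases, was 3.86-fold higher in hypothalamus. Of 8 basolateral efflux carriers 3 were tested, and 1, Abcc5, was detected on all hypothalamus arrays. Abcc3 and Abcc6 were at least 113-fold and at least 27.1-fold higher in liver, and Abcc5, detected on 3 of 4 liver arrays, was higher in hypothalamus by at least 18.2-fold.

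The remaining FGF receptors and ligands lay on both sides. Of 8 listed, 7 were tested, with 2 higher in liver, 3 higher in hypothalamus and 2 not called (median −0.14). On all hypothalamus arrays 6 were detected, with the 3 higher in hypothalamus and the 2 not called among them. Fgfr3, an astrocyte receptor in brain that was detected on 1 of 4 liver arrays, was at least 5.74-fold higher in hypothalamus, and Kl at least 1.93-fold. Kl varied widely between the hypothalamus arrays (SD 1.10 on the normalized log2 scale), and its test beyond 2-fold did not pass (limma's treat, adjusted p = 0.0655). Fgfr1, the other gene called higher in hypothalamus, was detected on all 4 hypothalamus arrays and no liver array, but its hypothalamus level lay below the detection floor of liver, so no fold is given. Fgf21, a liver hormone that also signals through Klb, was at least 51.9-fold higher in liver, and Fgfrl1 was 6.17-fold higher. Fgfr2 (−0.12, and 0.07 under cyclic loess) and Fgf1 (−0.14) were the genes not called. The Fgf15 probe was not detected in either tissue. Of 12 proteins of the canalicular membrane and its junctions 9 were tested, of which 7 were higher in liver and 2 were higher in hypothalamus. Their median difference was 4.11 or, at the bounds, 3.89. On all hypothalamus arrays 3 were detected, with the 2 higher in hypothalamus among them. The scaffold Pdzk1 was at least 104.7-fold higher in liver, the claudin Cldn3 at least 72.7-fold and Ceacam1, detected on 1 of 4 hypothalamus arrays, at least 19.5-fold. The vesicle regulator Rab11a, detected on 3 of 4 liver arrays, was higher in hypothalamus, by 2.24-fold at its bound. That bound leaves out the spread between arrays, and the test beyond 2-fold did not pass (limma's treat, adjusted p = 0.289). The junction protein Tjp1, one of the 7 (log2 difference 0.71), lost its call without background correction (0.20) and under median scaling (0.32), and its sign turned in the authors' normalized table (−0.08). Of 8 cholangiocyte markers 5 had a probe, and none of these was detected on all 4 liver arrays.

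**Figure D4:**
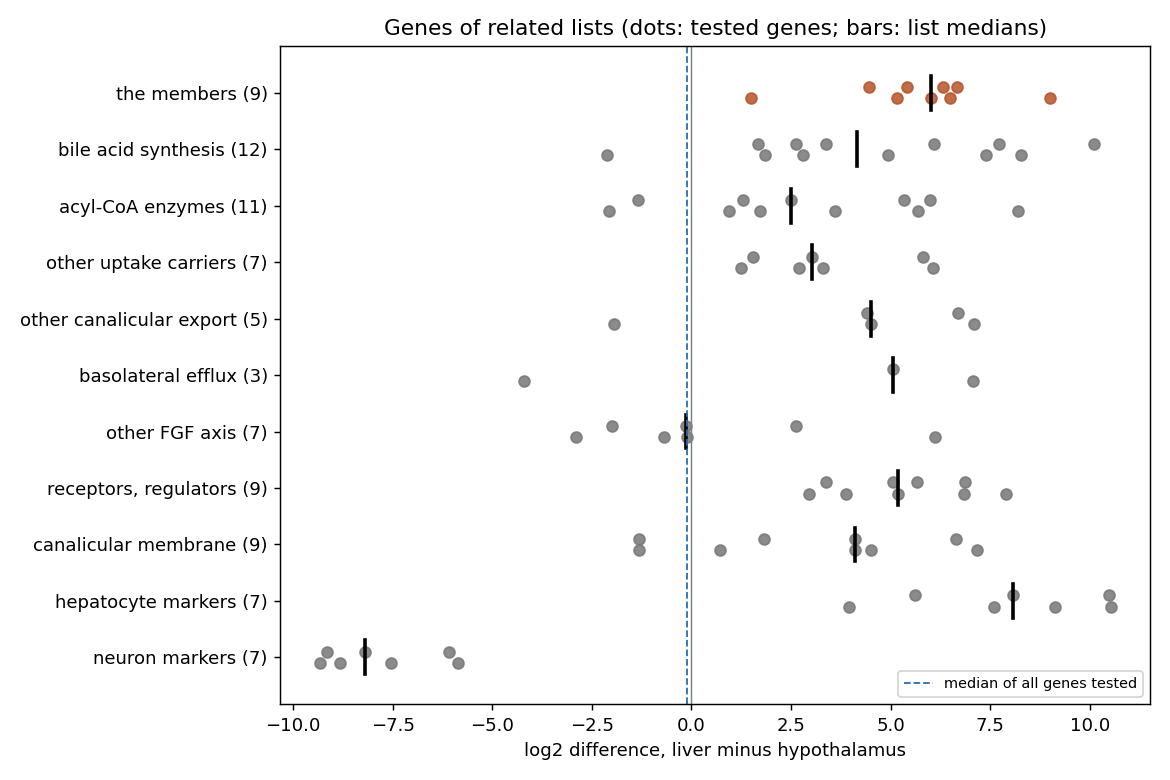
Log2 difference (liver minus hypothalamus) of the tested genes of the set and of 10 related or marker lists, with a bar at each list's median and a dashed line at the median of all genes tested. The 9 tested members lie between 1.49 and 8.996, and the other FGF genes spread to both sides of 0.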

How the data were processed

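Total RNA of 4 liver and 4 hypothalamus samples was hybridised to single-colour bead arrays. The deposited table holds 1 linear probe intensity and 1 detection p-value for each probe and array. The submitters' processing notes name lumi 2.10.0 and R 2.15.0 but not what each did. Scanner settings, background handling and genome build were not stated in the sources. A second deposited table holds intensity values normalized by the authors by a method not stated. Each of its columns kept the rank order of its array (rank correlation 1), and its medians were 143.9 to 144.6 in liver and 169.1 to 169.3 in hypothalamus, so it served as an alternative. Array medians of the unnormalized signals were 138.2 to 169.1, and the number of arrays limits the precision. Columns of other samples numbered 0.

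Signals were processed with neqc of limma 3.58.1 in R 4.3.3 (normexp correction with negative controls inferred from the detection p-values, offset of 16, quantile normalization of all arrays, log2). Quantile normalization makes differences relative to the bulk of probes, and normexp widens those of dim probes. Probes detected on at least 4 arrays were tested with lmFit and eBayes, and beyond 2-fold with treat; untested probes were read from a fit to all 25697. Probes were named by the platform annotation (23978 probes with 1 symbol, 0 with several, 1719 with none), updated through gene IDs found for 23962 probes in the RefSeq table of GRCm38.p6. A gene was represented by its brightest tested probe.

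Named genes were all probes of the set and of Fmod, up to 3 called genes of each list in its main direction and 1 in the other, and the 2 nearest profiles of each member; other names are marked. The members and lists were chosen with earlier results of these data known. The fit was tested on simulated data. Alternatives were other background, scaling, filter and variance settings, a replicate block and each array left out.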

Additional observations from a re-analysis of the deposited data

Results flagged for a closer look

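One of the 24 groups of 4 arrays examined (12 probes in 2 tissues) held an array far from the others. The dimmer Abcc2 probe (ILMN_2655359) had a normalized log2 intensity of 5.54 on liver replicate 2, against 6.59 to 6.68 on the other 3 liver arrays. The gap was 0.92 of the whole range, above Dixon's 95% critical value of 0.829. The array had a deposited signal of 157.8 and a detection p of 0.0652 there. The brighter Abcc2 probe was also lowest on that array (9.93 on the log2 scale, with 847 as the deposited signal), but its gap did not reach the critical value. Chance flags about 1 in 20 such groups.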

How the results depend on the processing

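All 9 tested member probes stayed higher in liver and past the threshold in each setting that tested them, with 1 array left out as well (9 in each of 8 such fits). Of 188 values of the 12 probes under the alternatives, 184 kept their direction and side. The exceptions were the dim probes that the filter left out. The undetected Slco1b2 probe turned to −0.015 with cyclic loess scaling (adjusted p = 0.900) and to −0.136 in the authors' normalized table (adjusted p = 0.0168), and reached 0.44 with a call under median scaling (adjusted p = 0.00168). Fgfr4 lost its call in the authors' values (0.038, adjusted p = 0.526). The median of the tested members moved to 3.46 without background correction, 3.42 in the authors' values and 6.53 under cyclic loess, and lay between 5.92 and 6.18 with 1 array left out. Requiring detection on all 8 arrays left 2 member probes, Slc27a2 and Abcb4, both called and both beyond 2-fold (median 6.49), and 6450 called probes against 10741; 58.6% of those 6450 were higher in liver. Called probes numbered 10367 to 10732 with 1 array left out. The number of member probes beyond 2-fold was 8 to 9 with 1 array left out. The causes were not tested. With the replicate block 10750 probes and the same number of member probes (9) were called. Deviations of same-numbered samples correlated at 0.12, 0.095, 0.030 and 0.12, and each liver sample correlated best with its own number, a hint from the data and not from the design. Signal close to background limits Slc10a1, Fgfr4 and the second probes of Abcc2 and Slco1b2.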
